A study of Gossypium hirsutum with 2 samples.

Results

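The chalcone synthase unigenes described here are 6 sequences of upland cotton (Gossypium hirsutum), Unigene0022155, Unigene0022154, Unigene0007824, Unigene0019307, Unigene0043038 and Unigene0082097, out of 136262 unigenes with reads in at least 1 of the libraries. A unigene is a sequence named as such in the deposited tables, commonly an assembled transcript. The members were listed by name with their levels in these libraries already known, so their levels and ratios are a description and carry no test. All 6 carry the deposited text "chalcone synthase [Gossypium hirsutum]", which 8 unigenes carry in all; the other 2, Unigene0146632 and Unigene0082100, are given beside the members. Their nucleotide and protein sequences and genome positions are not given here.

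The libraries were FL ovule, from ovules of XZ142FLM with the genotype li3li3n2n2, a line whose seeds are hairless (fuzzless and lintless) with minimal fiber, and WT fiber, from fiber of the wild-type cultivar Xuzhou142. Both were collected at day 10 post anthesis from plants of a 22°C long-day greenhouse. There was 1 library per group, so no test of the groups was possible and no difference has a replicate check. Tissue and genotype differed together, and their parts cannot be told apart. The series was designed around RNA editing; only transcript levels are described here.

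Chalcone synthase is the entry enzyme of flavonoid synthesis. It joins a coumaroyl-CoA from the phenylpropanoid pathway with malonyl-CoA units to make a chalcone, which chalcone isomerase then closes into a flavanone. Flavonoids lead on to flavonols, anthocyanins and proanthocyanidins, the tannins that accumulate in cotton seed coats and in naturally brown fiber. Plants usually carry several chalcone synthase genes, and upland cotton, an allotetraploid, carries homoeologous copies of most genes.

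FL ovule had 53.4 M reads and WT fiber had 45.6 M reads. The 30 most-read unigenes held 38.5% of the reads of FL ovule and 21.1% of those of WT fiber, and they share the total behind RPKM (reads per kilobase of sequence, relative to the library total). Levels are RPKM as deposited. Their intervals, and those of folds and shares, are exact 95% intervals from the read counts. They cover counting error only; without molecular identifiers, reads of 1 molecule may be counted repeatedly. In whole-tissue RNA, fewer cells of a type and less RNA per cell cannot be told apart.

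Of the members, 5 had more RNA in FL ovule and 1 had far more in WT fiber. Unigene0082097, 676 bases long, was the most abundant member in both libraries, with 1886 RPKM (interval 1872 to 1901) in FL ovule against 276 RPKM (270.2 to 282.0) in WT fiber. These levels rest on 68068 reads in FL ovule and 8511 reads in WT fiber. It ranked 31st by RPKM among all unigenes in FL ovule and 311th in WT fiber. Its ratio, FL ovule over WT fiber, was 6.83 (6.68 to 6.99).

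Unigene0043038, 1389 bases long, went against the other members. It had 4.79 RPKM (4.30 to 5.31) in FL ovule against 116 RPKM (113 to 118) in WT fiber, from 355 reads and 7332 reads. It was therefore 24.2-fold higher in WT fiber (21.7 to 27.0), where it ranked 916th by RPKM, against 16807th in FL ovule. On the scale log2((RPKM + 1) in FL ovule / (RPKM + 1) in WT fiber), here called the log2 ratio, it had a value of -4.33, the 202nd lowest of 63258 measured unigenes. A unigene counts as measured if either library gave it 1 RPKM or above; all 6 members passed.

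Unigene0022155 and Unigene0022154, which have consecutive numbers, had the largest ratios among the members but low levels. Unigene0022155, 472 bases long, had 36.2 RPKM (33.9 to 38.6) in FL ovule against 1.30 RPKM (0.864 to 1.88) in WT fiber, from 912 and 28 reads. Its ratio was 27.8 (19.1 to 42.1), and its log2 ratio of 4.02 was the 69th highest of all measured unigenes. Unigene0022154, 221 bases long, had 27.0 RPKM (24.2 to 30.2) in FL ovule against 1.39 RPKM (0.759 to 2.33) in WT fiber, from 319 and 14 reads, a ratio of 19.5 (11.4 to 36.0). The few reads in WT fiber set the width of both intervals.

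Unigene0007824 and Unigene0019307 were low in both libraries. Unigene0007824, 399 bases long, had 4.93 RPKM (4.03 to 5.97) in FL ovule against 1.04 RPKM (0.629 to 1.63) in WT fiber, from 105 and 19 reads, a ratio of 4.72 (2.88 to 8.15). Unigene0019307, at 1436 bases the longest member, had 4.87 RPKM (4.38 to 5.39) in FL ovule against 1.40 RPKM (1.13 to 1.72) in WT fiber, from 373 and 92 reads, a ratio of 3.46 (2.75 to 4.40). With the pseudocount their log2 ratios were 1.54 and 1.29. Unigene0019307 did not reach 2-fold once both libraries were brought to the same RPKM sum (0.82), and neither did with a pseudocount of 5 (0.72 for Unigene0007824 and 0.62 for Unigene0019307).

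**Figure D1:**
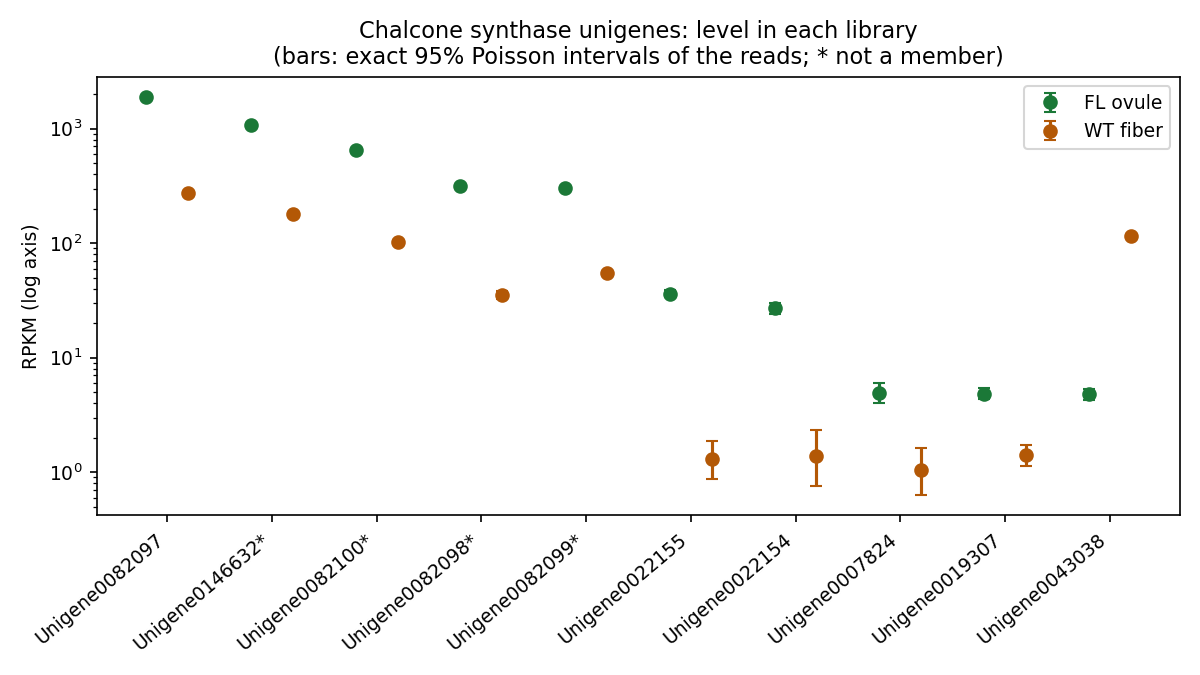
Level of each chalcone synthase unigene in RPKM (log axis), FL ovule in green at the left and WT fiber in orange at the right of each pair, 1 library each, with exact 95% Poisson intervals of the reads. Unigene0082097 was highest in both libraries, while Unigene0043038 had 4.79 RPKM in FL ovule against 116 RPKM in WT fiber; an asterisk marks unigenes that are not members.

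Counted at 2-fold on the log2 ratio, 5 of the 6 members lay on the side of FL ovule and 1 on that of WT fiber. Over all 63258 measured unigenes, 15.3% passed 2-fold towards FL ovule and 10.5% passed it towards WT fiber. The median log2 ratio was 2.15 over the members and 0.39 over all measured unigenes. Since the members were chosen with this contrast in view, the counts say nothing further about them.

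**Figure D2:**
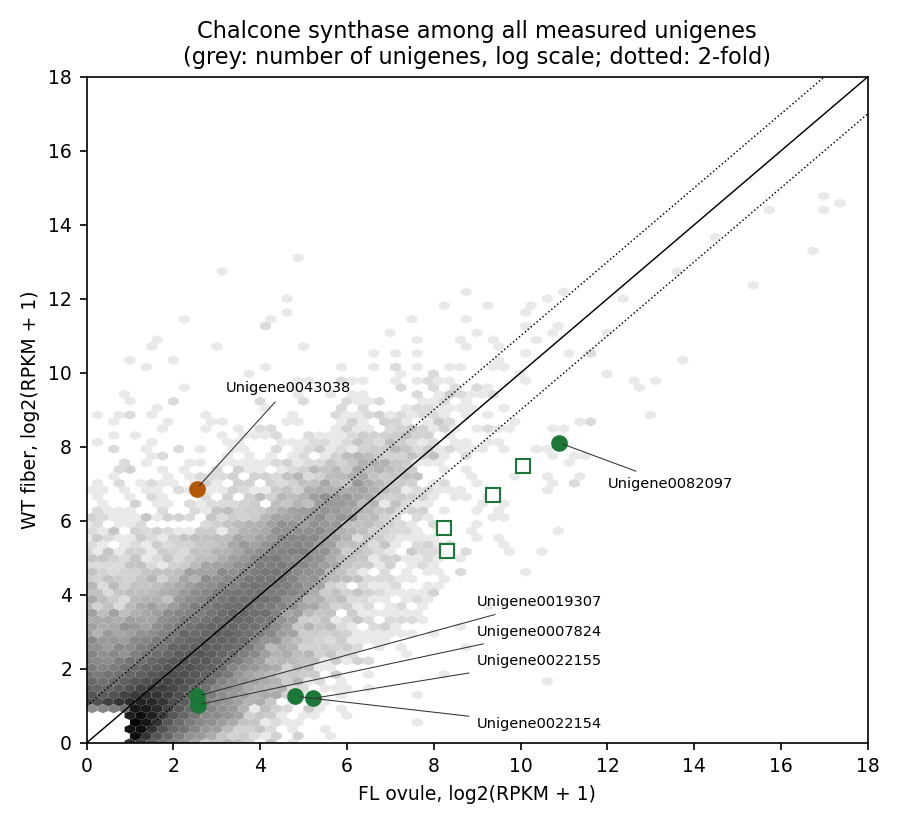
Levels as log2(RPKM + 1) of all 63258 measured unigenes (grey, darker for more unigenes), FL ovule on the horizontal axis and WT fiber on the vertical axis, with the members as filled circles and other chalcone synthase unigenes as open squares. Unigene0043038 lies far above the upper 2-fold line (dotted), the side of WT fiber, and the other 5 members lie below the lower one.

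The order of the members changed between the libraries. In FL ovule it ran from Unigene0082097 through Unigene0022155 and Unigene0022154 to Unigene0007824, Unigene0019307 and Unigene0043038; these last 3 lay between 4.79 and 4.93 RPKM with overlapping intervals. In WT fiber Unigene0082097 came first and Unigene0043038 second. The remaining members, Unigene0019307, Unigene0022154, Unigene0022155 and Unigene0007824, lay between 1.04 and 1.40 RPKM there, again with overlapping intervals. Thus the pair of consecutive numbers stood above the low members in FL ovule and could not be separated from them by counting error in WT fiber.

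Ratios between members within a library do not depend on how the libraries are scaled. Unigene0043038 had 0.00254 times the RPKM of Unigene0082097 in FL ovule and 0.419 times in WT fiber. The change of this ratio between the libraries was 165-fold (148 to 184). Against Unigene0022155 the corresponding change was 673-fold (455 to 994), and against Unigene0019307, the member with the next lowest ratio, it was 83.7-fold (65.1 to 108).

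Among all 15 pairs of members, the counting interval of the change of ratio excluded 1 in 12 and held 1 in 3. The 3 were Unigene0022155 with Unigene0022154 (1.43, interval 0.686 to 2.85), Unigene0082097 with Unigene0007824 (1.45, 0.887 to 2.36), and Unigene0007824 with Unigene0019307 (1.36, 0.781 to 2.48). An interval that holds 1 does not show that a pair moved alike; each of the 3 intervals extended past 2-fold. Unigene0022155 stood 4.07-fold (2.79 to 5.94) above Unigene0082097 in its change between libraries, and Unigene0082097 stood 1.97-fold (1.57 to 2.48) above Unigene0019307.

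**Figure D3:**
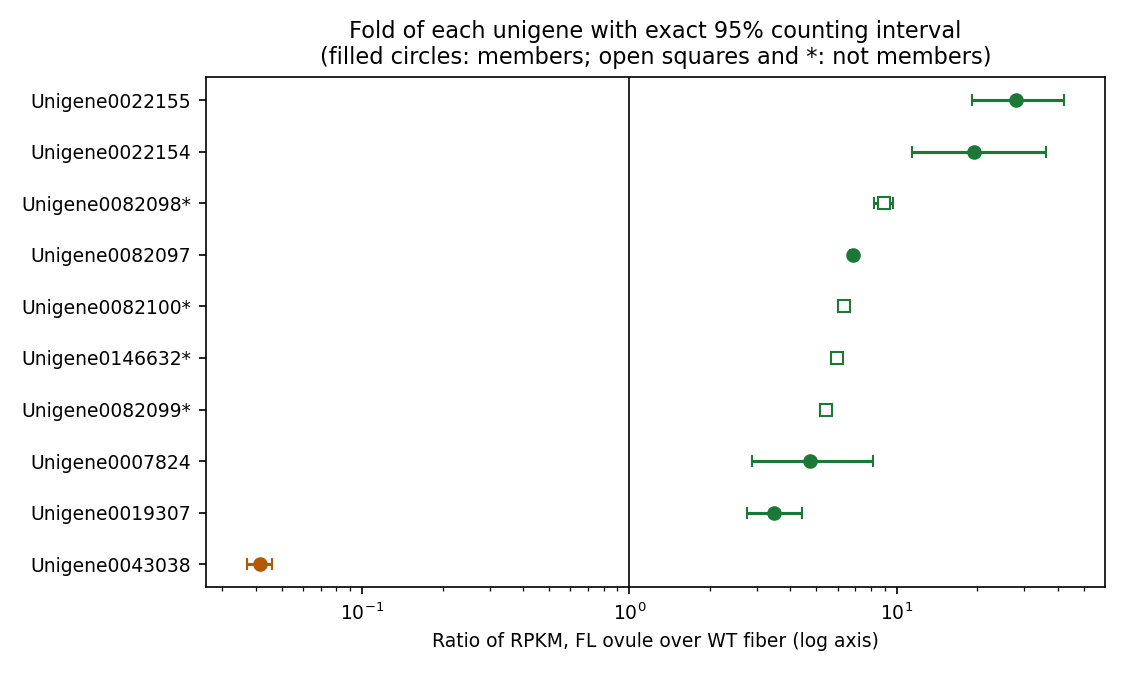
Ratio of RPKM, FL ovule over WT fiber (log axis), for each measured chalcone synthase unigene with its exact 95% counting interval, members as filled circles and other unigenes as open squares. The ratios of 9 unigenes lie between 3.46 and 27.8, and Unigene0043038 stands alone on the other side of 1, at 0.0414.

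The summed level of the members was 1964 RPKM in FL ovule and 397 RPKM in WT fiber, a ratio of 4.95. A single unigene set this direction: without Unigene0082097 the other 5 summed to 77.8 RPKM in FL ovule and 121 RPKM in WT fiber, a ratio of 0.644. Without Unigene0043038 the sums were 1959 RPKM and 281 RPKM, a ratio of 6.97. Unigene0082097 held 97.1% of the members' reads in FL ovule (96.9% to 97.2%) and 53.2% in WT fiber (52.4% to 54.0%). Unigene0043038 held 0.506% (0.455% to 0.562%) and 45.8% (45.1% to 46.6%). The remaining 4 members together carried few reads in either library, at most 1.30% each.

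**Figure D4:**
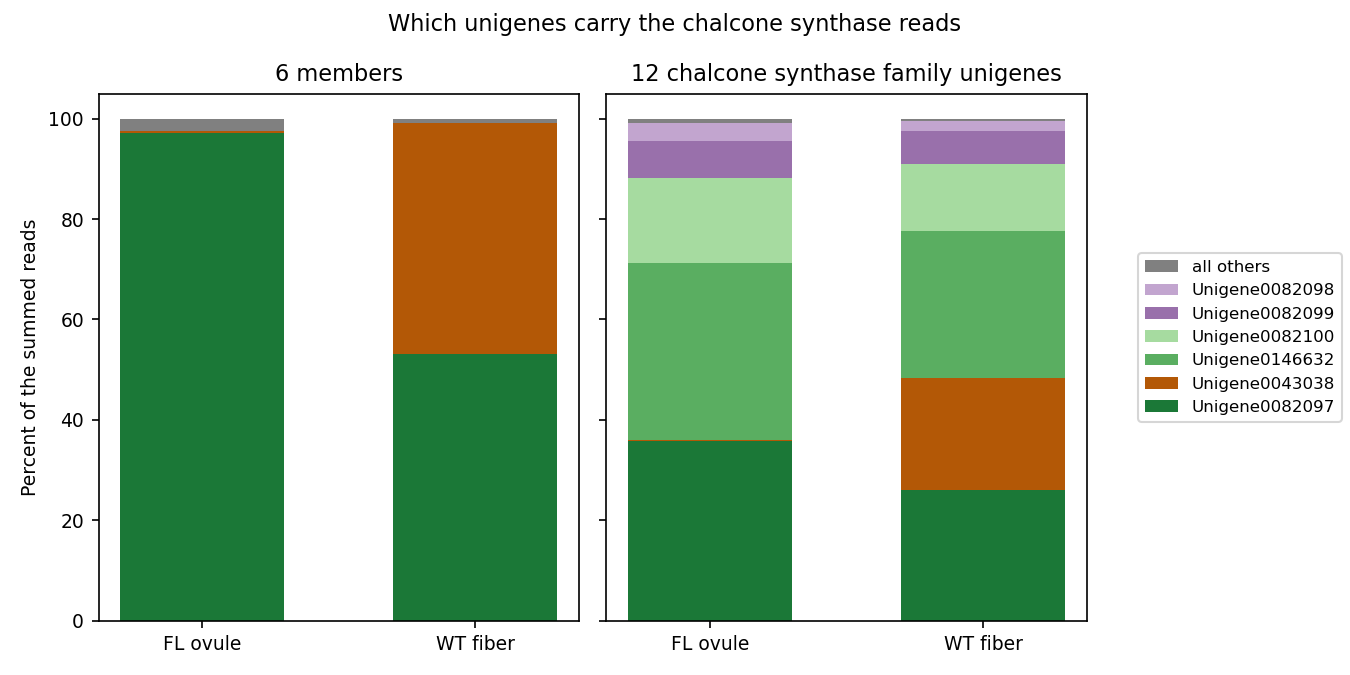
Percent of the summed chalcone synthase reads held by each unigene in FL ovule (left bar) and WT fiber (right bar), over the 6 members and over 12 unigenes of the chalcone synthase family. Unigene0043038, in orange, held 0.506% of the members' reads in FL ovule against 45.8% in WT fiber, and over the 12 unigenes 0.186% against 22.4%.

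The measured chalcone synthase unigenes outside the list were all higher in FL ovule, as Unigene0082097 was. Of these, Unigene0082098, Unigene0082099 and Unigene0082100 have numbers consecutive with Unigene0082097 and may not be separate genes. Unigene0146632 and Unigene0082100, which share the members' text, reached 1071 RPKM and 653 RPKM in FL ovule, against 179 RPKM and 103 RPKM in WT fiber, with ratios of 5.98 (5.86 to 6.12) and 6.33 (6.14 to 6.54). Unigene0082098, whose text reads chalcone synthase 1, had 314 RPKM in FL ovule against 35.2 RPKM in WT fiber, a ratio of 8.92 (8.23 to 9.68). Unigene0082099, with the text of the chalcone and stilbene synthase family, had 301 RPKM in FL ovule against 55.3 RPKM in WT fiber, a ratio of 5.45 (5.21 to 5.71). Stilbene synthases are close relatives of chalcone synthase that fold the same chain differently. Unigene0124427 and Unigene0027904 carry that family text too and stayed below 1 RPKM in both libraries, with 4 and 7 reads in FL ovule and 1 and 5 reads in WT fiber.

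In FL ovule each of these 4 measured unigenes was more abundant than 5 of the 6 members. Over the 8 unigenes with the members' text the summed level was 3688 RPKM in FL ovule and 679 RPKM in WT fiber, a ratio of 5.43. Over all 12 family unigenes it was 4305 RPKM and 770 RPKM, a ratio of 5.59. Of the 10 measured ones, 9 passed 2-fold towards FL ovule and Unigene0043038 alone towards WT fiber, where it held 22.4% of the family's reads, against 0.186% in FL ovule. Per length its share of the family's summed RPKM was 0.111% in FL ovule against 15.0% in WT fiber.

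The numbers and lengths of the unigenes differed among the members. Unigene0082097, Unigene0082098, Unigene0082099 and Unigene0082100 have consecutive numbers, as do Unigene0022154 and Unigene0022155. Among annotated unigenes with consecutive numbers, 41.2% of 54788 pairs had the same text, against 0.037% of 48686 pairs that were 100 numbers apart. Only Unigene0019307 and Unigene0043038 among the members were longer than 1000 bases, and 3 were shorter than 500 bases. The columns count unique reads, so how reads from near-identical copies were divided or dropped is uncertain for every unigene here.

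In other annotation the members were alike in pathway text and differed in their function, component and process terms. All 6 carry the deposited pathway texts for flavonoid biosynthesis and for the plant circadian rhythm, and 4 carry the function term for acyltransferases. Unigene0043038 was annotated to the plant-type vacuole and to anthocyanin biosynthesis, response to UV and auxin transport. Unigene0007824 was annotated to flavonoid biosynthesis, while Unigene0019307 and Unigene0082097 had no function, component or process term. These are annotations of the sequences, not measurements.

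Several steps that supply or follow chalcone synthase had most of their called unigenes on the side of FL ovule. Counts below are of unigenes at least 2-fold apart on the log2 ratio, picked by their text. Its pseudocount leaves out some low unigenes that were more than 2-fold apart in RPKM. Of 107 measured unigenes in 13 text lists, 38 leaned to FL ovule and 13 to WT fiber. Over all 63258 measured unigenes, 15.3% passed 2-fold towards FL ovule and 10.5% towards WT fiber, and the counts for single steps below stand beside these shares. The median log2 ratio was 0.58 in the lists and 0.39 over all measured unigenes. Once both libraries were brought to the same RPKM sum, the lists had 25 and 21. All unigenes then had 3960 towards FL ovule and 11478 towards WT fiber, of 54584 measured. Of 35 measured unigenes with the deposited flavonoid biosynthesis text outside the chalcone synthase family, 22 leaned to FL ovule and 3 to WT fiber. This list was added after the values were seen and overlaps the 13 lists, so it is not a separate set. It includes gibberellin oxidases, which belong to another pathway.

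On the supply side, phenylalanine ammonia-lyase starts the phenylpropanoid pathway. It was higher in FL ovule in 6 of 7 unigenes and in WT fiber in none. With the same RPKM sum in both libraries, phenylalanine ammonia-lyase had 4 towards FL ovule and none towards WT fiber. Its most abundant unigene, Unigene0070070, had 323 RPKM in FL ovule against 113 RPKM in WT fiber, a ratio of 2.86 (2.81 to 2.92). Cinnamate 4-hydroxylase, the next enzyme, was divided: Unigene0132661 and Unigene0051644 had ratios of 6.76 and 6.01, while Unigene0072860 had 495 RPKM in FL ovule against 549 RPKM in WT fiber. Cinnamate 4-hydroxylase had 2 towards FL ovule both as reported and with the same RPKM sum in both libraries. The ligase that makes coumaroyl-CoA, the substrate of chalcone synthase, also had unigenes in both directions, 3 towards FL ovule and 2 towards WT fiber. For the ligase these counts became 2 and 2 with the same RPKM sum. Unigene0082405 had 27.0 RPKM in FL ovule against 2.09 RPKM in WT fiber, and Unigene0076358 had 0.394 RPKM in FL ovule against 6.93 RPKM in WT fiber, 17.6-fold higher in WT fiber. Acetyl-CoA carboxylase, which makes malonyl-CoA for this pathway and for fatty acids, was past 2-fold on the log2 ratio in 1 of 20 unigenes. This list mixed texts of acetyl-CoA carboxylase 1 with texts of the biotin carboxyl carrier protein and of the carboxyltransferase alpha subunit. Which of them supply chalcone synthase was not tested. This was Unigene0047016, a carboxyltransferase alpha subunit by its text, with a ratio of 2.49 towards FL ovule. Texts of acetyl-CoA carboxylase 1 had log2 ratios from -0.05 to 0.95. Those of the biotin carboxyl carrier protein ran from -0.86 to -0.49, towards WT fiber. Unigene0051618 had a ratio of 2.11 but a log2 ratio of 0.95, short of 2-fold with the pseudocount. With the same RPKM sum in both libraries, none was past 2-fold towards FL ovule and 3 were towards WT fiber.

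Chalcone isomerase acts on the product of chalcone synthase. Its list also took in texts of the chalcone-flavanone isomerase family, which name a family and not the enzyme itself. In this list 8 of 14 unigenes were higher in FL ovule and none in WT fiber. With the same RPKM sum in both libraries, 6 were higher in FL ovule and none in WT fiber. Unigene0044180, with the text chalcone isomerase, had 875 RPKM in FL ovule against 424 RPKM in WT fiber, a ratio of 2.07 (2.04 to 2.10). Unigene0047937, with the family text, had a ratio of 4.11 (3.99 to 4.24). The hydroxylases of the flavonoid B ring were higher in FL ovule in 3 of 5 unigenes, and this count stayed at 3 with the same RPKM sum. The most abundant, Unigene0074890 with a flavonoid 3'5'-hydroxylase text, had 1319 RPKM in FL ovule against 233 RPKM in WT fiber, a ratio of 5.66 (5.57 to 5.74), and Unigene0069164 with a flavonoid 3'-hydroxylase text had a ratio of 7.23.

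Dihydroflavonol 4-reductase makes the precursors of anthocyanidins and tannins. Of its 16 unigenes, 4 leaned to FL ovule and 1 to WT fiber, with a median log2 ratio of -0.29. These counts became 2 and 5 with the same RPKM sum in both libraries. Many of the 16 share the text of a bifunctional dihydroflavonol 4-reductase/flavanone 4-reductase isoform 1, with log2 ratios from -0.98 to 0.11. The median weighs each unigene alike. The summed level of the list was 1103 RPKM in FL ovule against 520 RPKM in WT fiber. The abundant unigene of the list, Unigene0058076, had 677 RPKM in FL ovule against 341 RPKM in WT fiber, a ratio of 1.99. Unigene0051992 had 39.3 RPKM in FL ovule against 3.84 RPKM in WT fiber, a ratio of 10.2. The 2 measured leucoanthocyanidin reductases, enzymes that make units of tannins, were both higher in FL ovule, Unigene0059650 by 4.31-fold and Unigene0067461 by 2.22-fold; with the same RPKM sum in both libraries 1 of them stayed past 2-fold. The flavanone 3-hydroxylase texts matched 2 unigenes below 1 RPKM, and no text matched anthocyanidin synthase, so these steps are not described.

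Enzymes that modify flavonoids were divided. Of 20 flavonoid glucosyltransferases, which attach sugars, 4 leaned to FL ovule and 8 to WT fiber, or 8 and 8 with library totals that omit the 30 most-read unigenes, 1 and 8 with the same RPKM sum in both libraries, and 0 and 3 with a pseudocount of 5. Unigene0063440 had 30.1 RPKM in FL ovule against 129 RPKM in WT fiber, and Unigene0034530 had 4 reads in FL ovule against 908 reads in WT fiber. A flavonol synthase, Unigene0011085, had 0 reads in FL ovule, where the exact interval reaches 0.0661 RPKM, against 245 reads (5.14 RPKM) in WT fiber. Set against a floor of 3 reads in FL ovule, the level in WT fiber was 95.6-fold higher, a value that is not a limit from the exact interval. Another text, putative flavonol synthase, was at 2.07 RPKM in FL ovule against 0.0539 RPKM in WT fiber (Unigene0071538). The pattern for flavonol synthase also took in 2 receptor kinases by their abbreviation.

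In the list of flavonoid regulators known from Arabidopsis, whose search terms also matched 4 TT12 transporters, 4 of 11 unigenes leaned to FL ovule and none to WT fiber. Without those transporters, left out after the values were seen, 3 of 7 leaned to FL ovule, with a median log2 ratio of -0.03. Of these 3, Unigene0065047 had the text of a transcription repressor like MYB5. With the same RPKM sum in both libraries, 3 unigenes of the whole list leaned to FL ovule and none to WT fiber. Unigene0058762 had a text like TT2, a MYB factor that activates tannin genes in the Arabidopsis seed coat. It had 8.66 RPKM in FL ovule against 1.20 RPKM in WT fiber, a ratio of 7.23 (5.63 to 9.42). With the same text, Unigene0065991 had 4.38 RPKM in FL ovule against 1.25 RPKM in WT fiber. Unigene0116719, again with that text, went the other way, with 0.717 RPKM in FL ovule against 1.47 RPKM in WT fiber. Unigene0071500 and Unigene0075344, with texts of TTG1, a WD40 protein needed for tannins and for leaf hairs in Arabidopsis, had 22.3 RPKM and 22.4 RPKM in FL ovule, against 26.7 RPKM and 27.1 RPKM in WT fiber. Unigene0070365, with a text like the tannin precursor transporter TT12, had 12.9 RPKM in FL ovule against 3.25 RPKM in WT fiber.

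**Figure D5:**
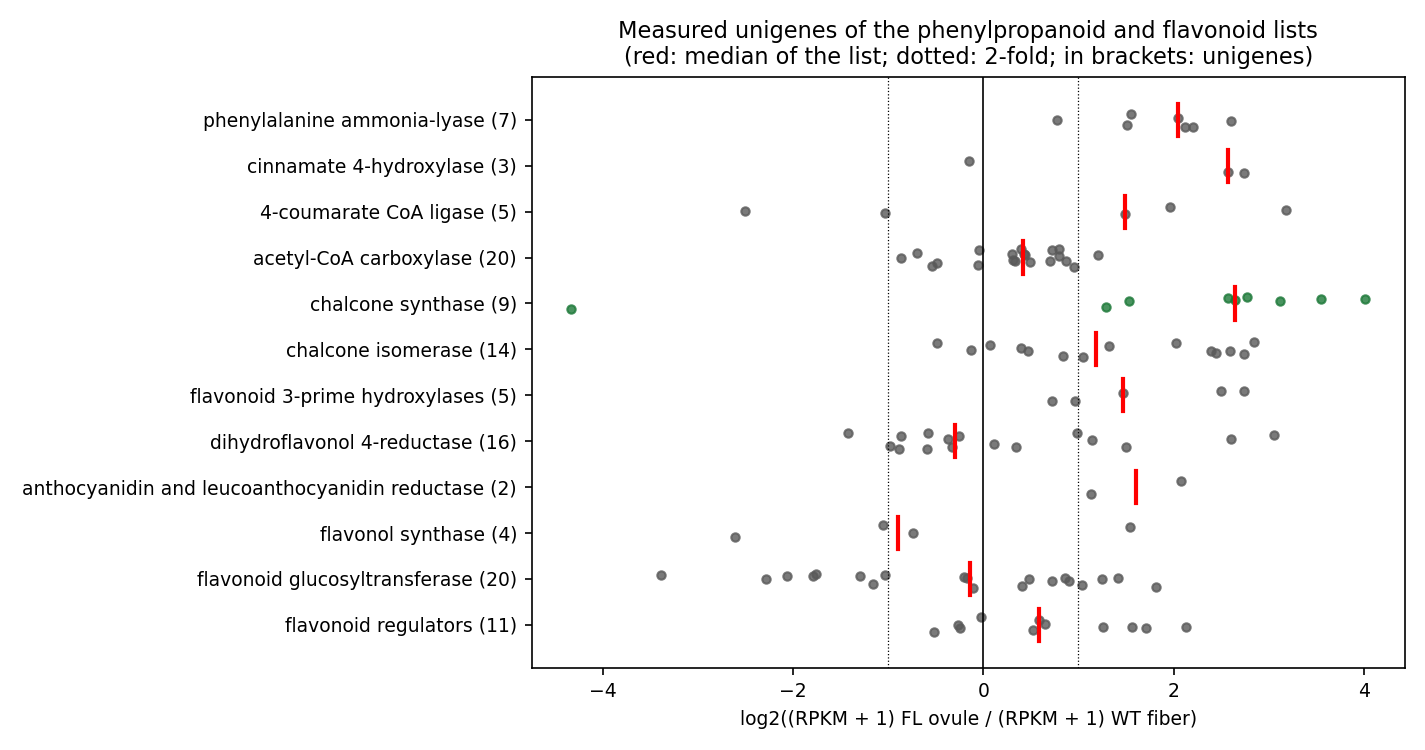
Log2 ratio, FL ovule over WT fiber, of each measured unigene in 12 lists ordered along the pathway, with the median of each list in red and dotted lines at 2-fold. The chalcone synthase list (green) has a median of 2.65 with Unigene0043038 at -4.33, and the glucosyltransferases have a median of -0.14.

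Markers of several cell types differed between the libraries, and their counts stand beside 15.3% towards FL ovule and 10.5% towards WT fiber over all measured unigenes. Of 110 measured fiber markers, 17 passed 2-fold towards FL ovule and 46 towards WT fiber, and they summed to 4493 RPKM in FL ovule against 25464 RPKM in WT fiber. Of 76 markers of dividing cells, 52 leaned to FL ovule and 2 to WT fiber, with 4909 RPKM and 1135 RPKM. Seed coat endothelium markers, all 17 of which are also in the pathway lists, were higher in FL ovule in 5 of 11 and in WT fiber in none, with 411 RPKM and 180 RPKM. Embryo and endosperm markers summed to 1294 RPKM in FL ovule against 1228 RPKM in WT fiber, with 26 of 79 leaning to FL ovule and 15 to WT fiber; 2 of their 125 texts had 0 reads in FL ovule and 14 had 0 reads in WT fiber. Green tissue markers summed to 754 RPKM and 1219 RPKM (16 and 9 of 77) and vascular markers to 115 RPKM and 148 RPKM (4 and 4 of 30). The part of these cell types in the chalcone synthase levels was not tested.

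Leaving out the chalcone synthase family and texts without a named protein, the annotated unigenes nearest to Unigene0082097 by level in both libraries were a ripening-related protein (Unigene0039202), the flavonoid 3'5'-hydroxylase Unigene0074890, a peroxidase (Unigene0054407), an alcohol dehydrogenase A (Unigene0051230) and a unigene of 201 bases with a vacuolar ATP synthase text (Unigene0024629). Likeness was the Euclidean distance over log2(RPKM + 1) in the 2 libraries, and these distances ran from 0.47 to 1.19. The flavonoid 3'5'-hydroxylase lay at 0.57.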

How the data were processed

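The authors deposited, per the file headers, whole-number counts of unique reads per unigene and RPKM values made from those counts, the unigene length and the header total of 53378441 reads (FL ovule) or 45611990 reads (WT fiber). RPKM recomputed from these differed by at most 2.4e-14 of its value. The submitters' processing notes name Bowtie and Bowtie2 with no role; assembler, annotation source, build and strand: not given in the sources used here. Per the labels' protocols, oligo-dT selection and ribosomal RNA depletion were each applied to a portion of the RNA, and which portion gave these values is not stated. The deposited coverage column was not used.

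Unigenes found in a single table were given 0 reads in the other. Log2 ratios, and the counts of unigenes taken from them, used a pseudocount of 1, a minimum of 1 RPKM in a library and a 2-fold threshold. Ratios and folds of single unigenes and of sums had no pseudocount. Fold intervals were Clopper-Pearson, level intervals Poisson, and intervals of a change of ratio were conditional exact, or large-sample where a count exceeded 3000. With 1 library per group no test was run. The functions were tested on simulated data. Python 3.11.15, pandas 2.3.3, NumPy 2.4.6, SciPy 1.17.1 and matplotlib 3.10.9 were used. Members, lists and alternatives were chosen with earlier results of these data known. Named unigenes were all members, all others with a chalcone synthase text at 1 RPKM or more, the 2 most abundant and the 2 with the largest ratio (at 5 RPKM or more) of each list, of which those most informative are given, and the 5 nearest to the most abundant member outside the chalcone synthase family and uninformative texts. Unigenes named beyond this rule were Unigene0082099, Unigene0124427, Unigene0027904, Unigene0071538, Unigene0065047, Unigene0065991, Unigene0116719 and the neighbours of Unigene0043038 under other observations. They were chosen after their values were seen. Alternatives were other pseudocounts, filters, thresholds, scalings and sets of unigenes.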

Additional observations from a re-analysis of the deposited data

How the results depend on the processing

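No paired analysis was possible because each group had 1 library. The log2 ratios of all 10 measured chalcone synthase unigenes kept their direction under the 6 alternative pseudocounts and scalings, from -4.88 to -3.62 for Unigene0043038 and from 2.14 to 3.13 for Unigene0082097. The count of members higher in WT fiber was 1 under all alternatives tried; members higher in FL ovule numbered 3 with a pseudocount of 5, with a minimum of 5 RPKM and at 4-fold, and 4 or 5 otherwise. The summed ratio of the members was 3.21 with a common RPKM sum, 5.46 by the median ratio, 4.54 by the upper quartile, 6.34 with totals that omit the 30 most-read unigenes and 3.75 by reads not scaled to length. It was 5.43 over all unigenes with the same text, 5.60 over all texts naming chalcone synthase, and, chosen after seeing the data, 6.97 without Unigene0043038 and 0.644 without Unigene0082097, which held 96.0% of the members' summed RPKM in FL ovule.

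The pathway lists pooled had 25 unigenes leaning to FL ovule and 21 to WT fiber with a common RPKM sum, 59 in FL ovule with totals that omit the 30 most-read, 19 and 5 at 4-fold, 5 in WT fiber with a pseudocount of 5 and 6 in WT fiber at 5 RPKM or more. Over all unigenes the counts towards FL ovule and towards WT fiber were 9697 and 6659 as reported, 3960 and 11478 with a common RPKM sum, 1832 and 2892 with a pseudocount of 5, 3548 and 4307 at 5 RPKM or more and 1387 and 1771 at 4-fold; those higher in FL ovule were 23140 with a pseudocount of 0.1 and 25207 with totals that omit the 30 most-read. FL ovule held 59.3% of the 2-fold differences as reported, 25.7% with a common RPKM sum and 81.7% with the totals that omit those 30. The median log2 ratio of measured unigenes was 0.39, -0.23 and 0.69 under these 3. Of 136 counts for single pathway lists under alternatives, leaving out those at 0 both as reported and under the alternative, 95 stayed within 1.5 times. Beyond what the scaling itself multiplies, the cause was not tested.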

Other observations

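Unigene0043038 had close neighbours in level that are not of the flavonoid pathway by their texts; they were looked up after its values were seen. At a distance of 0.02 to 0.32 over log2(RPKM + 1) in the 2 libraries lay unigenes with texts of a LysM domain protein (Unigene0028631), a glycosyl hydrolase of family 35 (Unigene0044294), the SKU5-like protein Unigene0069985, an auxin-induced protein 6B (Unigene0052562) and a rapid alkalinization factor (Unigene0066242). Unigene0028631 had 4.85 RPKM in FL ovule against 115 RPKM in WT fiber, 23.6-fold higher in WT fiber. Unigene0069985 had 4.38 RPKM in FL ovule against 136 RPKM in WT fiber, 31.2-fold higher in WT fiber.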
